A study of Mus musculus with 7 samples.

Results

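The Gpr17-high cells described here are oligodendrocyte-lineage cells of the mouse brain with an abundant transcript for Gpr17, a G protein-coupled receptor of late precursors and newly committed oligodendrocytes. They were chosen by their own raw transcript counts. A cell entered with at least 50 transcripts in all, at least 5 of Gpr17 and at least 1 of Sox10, the transcription factor that marks the whole lineage. It could hold at most 2 transcripts of the fibroblast genes Dcn and Col1a1 together, and at most 5 of the neuronal genes Slc17a6, Slc17a7, Gad1 and Gad2 together. The rule found 1553 cells, 0.416% of the 373198 cells with at least 50 transcripts, out of 384076 cells in all.

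The study measured 297 genes by Xenium in situ, which counts single transcripts inside segmented cells, on 7 coronal sections of single brain hemispheres of WT mice, snap frozen without fixation and cut through the anterior thalamic nuclei. Sections were 10 µm thick and came from 3 positions: anterior (bregma -0.58 mm, 2 sections), intermediate (bregma -0.70 to -0.82 mm, 2 sections) and posterior (bregma -0.94 mm, 3 sections). Replicates 1 and 2 lay on 1 slide, and posterior replicates 3 and 4 on the other. The labels give no age or treatment and do not say that replicates came from separate animals, so p-values measure the spread between sections, which may be technical.

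Oligodendrocyte precursors divide in the adult brain and carry the PDGF receptor Pdgfra and the NG2 proteoglycan Cspg4. When a precursor commits to differentiate it loses these, passes through a short stage with high Gpr17, and then turns on genes of myelinating cells such as Opalin, a membrane protein of oligodendrocytes. Gjc3, a connexin of myelinating glia, and the zinc transporter Tmem163 are further lineage genes of the panel.

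The sections held 50169 to 60720 cells and 17438577 to 23432215 transcripts each, and 177 to 282 Gpr17-high cells each. The median Gpr17-high cell held 255 transcripts, against 348 in the remaining cells. The 2 lineage classes compared with them below held fewer, with medians of 193 in precursor cells and 164 in Opalin-high cells. Of 6080 cells with at least 5 Gpr17 transcripts, 5765 also had Sox10, 5681 met the fibroblast limit and 1553 met the neuronal limit. The 4128 cells set aside for neuronal transcripts held a median of 488 transcripts in all and 16 neuronal ones. Of those 4128 cells, 74.2% had at least 5 Pdgfra transcripts and 9.76% at least 5 of Opalin, against 57.9% and 25.8% of the Gpr17-high cells. No caller of doublets was run, and 8 barcodes occurred in more than 1 section, of which a Gpr17-high cell held 0.

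Gpr17 and Sox10, as the rule required, were present in every member, with medians of 7 and 6 transcripts. The rule did not use Pdgfra or Opalin, and these set limits to the working name of committed precursors. At least 5 Pdgfra transcripts were found in 57.9% of the members (median 8), and 33.0% held none. At least 5 Opalin transcripts were found in 25.8% (median 1), and 49.0% held none. Cspg4 had a median of 4 transcripts and was at 0 in 25.6% of the members. The cells so chosen thus range from Pdgfra-bearing to Opalin-bearing, and are called Gpr17-high cells throughout.

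The genes that stood highest in Gpr17-high cells over all other cells are given as a description, since the cells were chosen on Gpr17 and Sox10. Gpr17 averaged 9.64 ± 0.427 transcripts per cell in Gpr17-high cells and 0.263 ± 0.0295 in other cells (SD, n = 7 sections), 36.7 times as many. Sema3d, a secreted semaphorin, followed at 13.9 times, Cspg4 at 13.5, Pdgfra at 10.4 and Sox10 at 5.48. Then came the semaphorin Sema5b at 4.56 times, Ppfibp1, which encodes liprin-beta 1, at 4.54, Gjc3 at 4.46 and Tmem163 at 4.13. Dpyd, an enzyme of pyrimidine breakdown, stood at 3.19 times, Opalin at 3.08, the C1q-related gene C1ql2 at 3.05, Sema6a at 2.58, the cadherin Cdh20 at 2.46 and Cobll1 at 2.32.

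A test over sections found no difference in the share of Gpr17-high cells between the 3 positions. It was 0.384% and 0.326% in the anterior sections, 0.445% and 0.424% in the intermediate sections, and 0.454%, 0.485% and 0.388% in the posterior sections. Both anterior sections lay below the other 5, by a margin as small as 0.388% in the lowest posterior section against 0.384% in the higher anterior one. Means were 0.355 ± 0.0412% (anterior), 0.435 ± 0.0145% (intermediate) and 0.442 ± 0.0497% (posterior; SD), and an exact two-sided permutation test over the 210 divisions of the 7 sections gave p = 0.171. The posterior mean exceeded the anterior one by 0.0869 percentage points (exact permutation p = 0.2, where 3 sections against 2 cannot go below 0.1). The difference was 0.283 points with no limit on neuronal transcripts, where the means were 1.65% in posterior and 1.37% in anterior sections. With at least 10 Gpr17 transcripts it was 0.0391 points, where the means were 0.153% and 0.114%. The exact permutation p between these positions was 0.1 in both settings. Without anterior replicate 2 the difference was 0.0578 points. The 95% Wilson intervals of single sections, which cover counting error only, ran from 0.281% at the lowest to 0.545% at the highest.

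The share within the oligodendrocyte lineage did not pass the test by position either. The lineage was counted as Gpr17-high cells plus 1753 precursor cells (at least 5 Pdgfra, under 5 Gpr17 and under 5 Opalin transcripts) plus 25387 Opalin-high cells (at least 5 Opalin, under 5 Pdgfra and under 5 Gpr17), both under the same limits on total, fibroblast and neuronal transcripts. Gpr17-high cells made up 5.06 ± 0.52% of it in anterior, 5.73 ± 1.28% in intermediate and 5.57 ± 1.32% in posterior sections (SD, n = 2, 2 and 3), with an exact permutation p = 0.914. The posterior minus anterior difference was 0.516 percentage points, and it turned to -0.216 without posterior replicate 3, which had the highest share (7.04%).

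**Figure D1:**
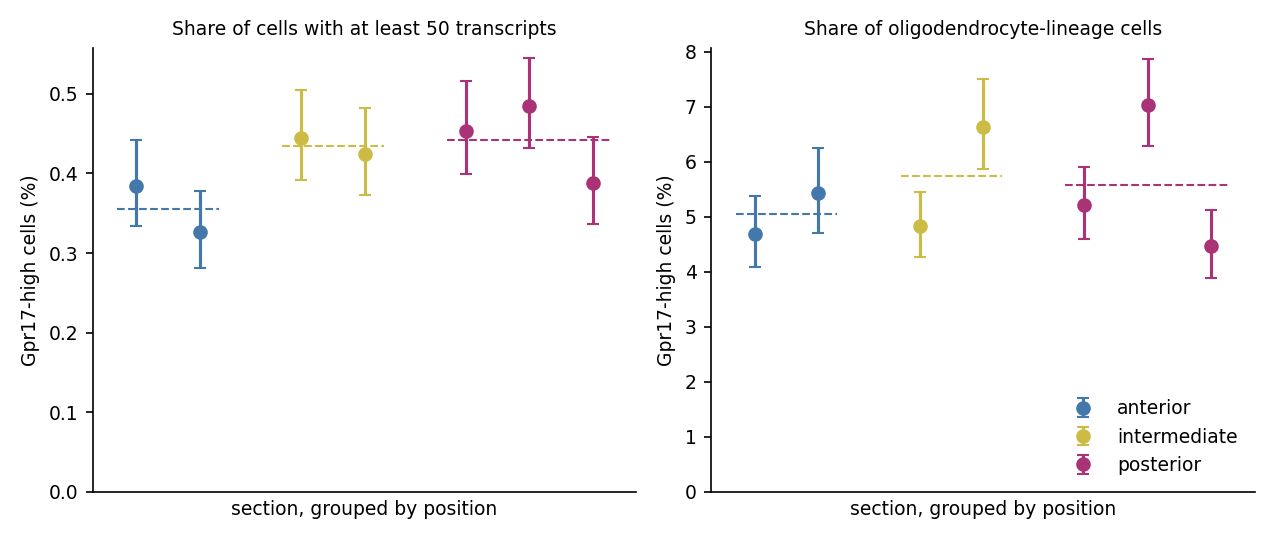
Share of Gpr17-high cells in each of the 7 sections, in percent of cells with at least 50 transcripts (left) and of oligodendrocyte-lineage cells (right). Points are sections with 95% Wilson intervals, coloured by position, and dashed lines are position means; the anterior points of the left panel lie below the others, the positions overlap in the right panel, and posterior replicate 3 (0.485% and 7.04%) is the highest point of each.

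Within the members, the levels of several lineage genes followed the Gpr17 count. Levels are given here per 1000 transcripts of the cells, and as a description, because the rule used the Gpr17 count. Pdgfra stood at 41.9 ± 3.1 in the 1029 members with 5 to 9 Gpr17 transcripts, 29.8 ± 5.61 in the 403 members with 10 to 19, and 4.23 ± 2.6 in the 121 members with 20 or more (SD, n = 7 sections). The highest section of the last group (8.2) lay far below the lowest section of the first (38.8). Cspg4 followed the same order, at 21.6 ± 1.67, 18.2 ± 2.85 and 10.4 ± 2.43. Sox10 ran the other way, at 25.5 ± 3.45, 32.5 ± 4.4 and 44.6 ± 5.84, and so did Ppfibp1, at 11.3 ± 1.1, 14.5 ± 1.87 and 25.4 ± 4.85. Sema5b stood at 4.75 ± 0.251, 5.46 ± 1.23 and 9.9 ± 1.36, so that it stood apart mainly in the highest group. Gjc3 (45.5 ± 3.97, 55.7 ± 6.44 and 64.8 ± 15.6) and Tmem163 (11.3 ± 1.87, 14.2 ± 3.08 and 16.2 ± 3.09) had higher means with more Gpr17, with section ranges that overlapped. Opalin had no such order, at 18.5 ± 4.17, 25 ± 5.24 and 18.8 ± 9.27, nor had Zfp536, at 10.0 ± 1.83, 11.4 ± 2.46 and 8.55 ± 2.81.

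The cells just inside and just outside the rule are given without a test. The 545 cells with 4 Gpr17 transcripts, just outside it and counted under the other limits, had 33.7 Pdgfra, 16.5 Cspg4, 5.3 Sema3d, 21.2 Opalin, 25.1 Sox10, 44.2 Gjc3 and 10.1 Tmem163 transcripts per 1000. The 342 cells with 5, just inside it, had 41.9 Pdgfra, 21.6 Cspg4, 6.29 Sema3d, 18.0 Opalin, 25.3 Sox10, 45.4 Gjc3 and 10.6 Tmem163. Pdgfra, Cspg4 and Sema3d were thus higher and Opalin lower inside the threshold, while Sox10, Gjc3 and Tmem163 were close on both sides of it.

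**Figure D2:**
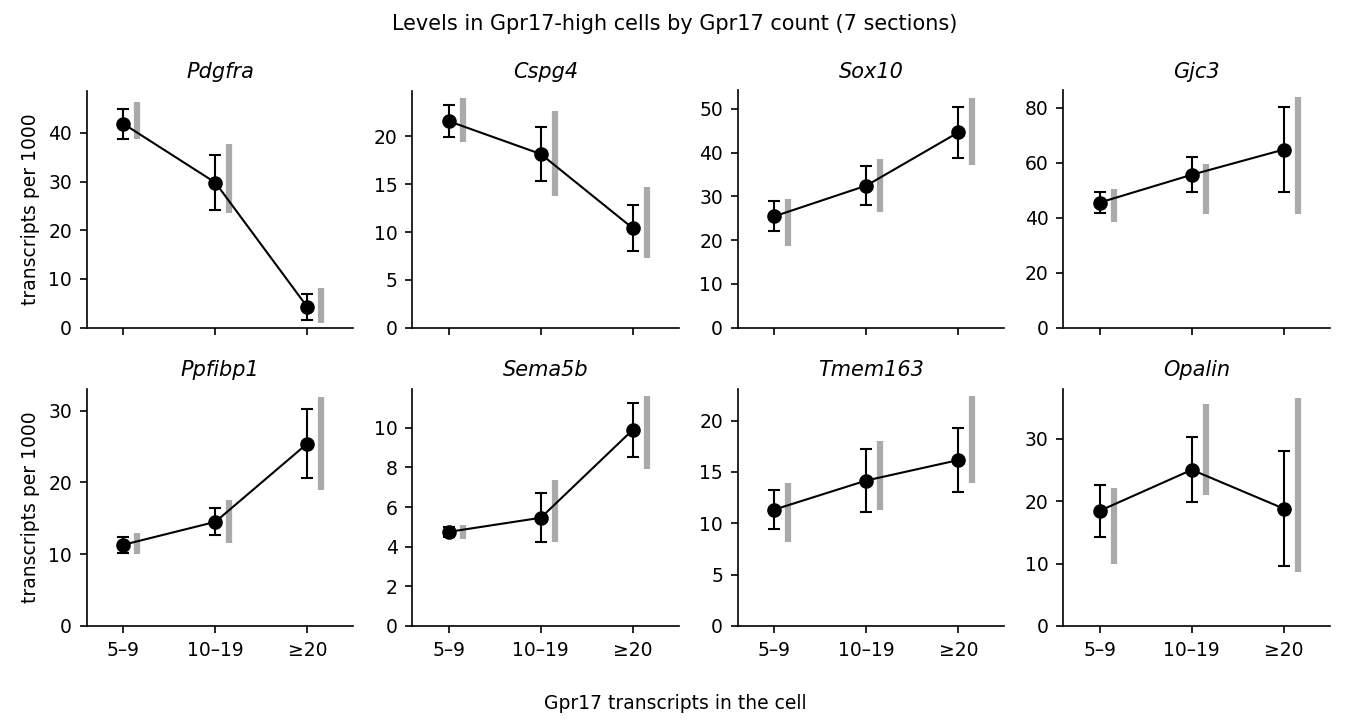
Levels of 8 lineage genes in Gpr17-high cells with 5 to 9, 10 to 19 and 20 or more Gpr17 transcripts, in transcripts per 1000. Black points and bars are the mean and SD over 7 sections and grey bars the range of sections; Pdgfra drops to 4.23 in the highest group while Ppfibp1 reaches 25.4 and Sox10 44.6, with no test since the rule used Gpr17.

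Gpr17-high cells were then compared with the precursor cells by edgeR's quasi-likelihood test on counts summed per section, with section as a block, TMM scaling and Benjamini-Hochberg adjustment. The 10 genes that define the classes were left out, and genes that go with Gpr17, Pdgfra or Opalin in the same cells are not independent of how the classes were drawn. Of 272 genes tested, 110 passed (40.4%), 55 of them higher in Gpr17-high cells (20.2%) and 55 lower (20.2%). Of the 9 tested genes of the oligodendrocyte lineage list, 7 were higher, 1 (Rnf152) was lower and Cspg4 did not pass. The Rnf152 call was lost without posterior replicate 1 (log2 -0.27) or posterior replicate 3 (-0.31), with cells thinned to 100 transcripts (-0.18) and with precursor cells at 10 or more Pdgfra transcripts (-0.21). That last setting, here and below, also raised the Opalin limit of precursor cells from under 5 to under 10 transcripts. The median log2 difference of these 9 was 1.29, against -0.04 over all genes tested.

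Tmem163 differed most. It stood between 10.9 and 15 transcripts per 1000 in Gpr17-high cells (median 12.0), against 3.17 to 4.17 in precursor cells (median 3.73). The classes did not overlap in any of the 7 sections. Here and below, non-overlap is stated for chosen genes and sums only, and its share over all genes tested is not given. The log2 difference was 2.03 ± 0.07 (SE; adjusted p = 2.36e-18 by edgeR), higher in 7 of 7 sections. Gjc3 stood between 43.1 and 53.9 per 1000 in Gpr17-high cells, against 22.4 to 30.8 in precursor cells, again without overlap (log2 1.15 ± 0.03, edgeR adjusted p = 9.56e-21). Another 5 lineage genes were higher: the semaphorin Sema6a (log2 1.45), the ADAMTS-like matrix gene Adamtsl1 (1.43), the homeobox gene Prox1 (1.39), the zinc-finger repressor Zfp536 (1.29) and the calmin gene Clmn (0.93).

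The precursor rule limits Opalin to under 5 transcripts and the rule for Gpr17-high cells does not, so the comparison was repeated with the 1152 members under 5 Opalin transcripts, an alternative chosen after seeing the data. It called 94 of 270 genes, 47 higher in Gpr17-high cells and 47 lower. Tmem163 (log2 1.46), Gjc3 (0.82), Cdh20 (0.78), Gadd45a (1.07), Sema5b (0.82) and Sema3d (0.71) stayed higher in Gpr17-high cells. Sema6a (0.33) and Prox1 (0.19) passed with smaller differences. Zfp536 (0.16) and Adamts2 (0.04) did not pass, and Adamtsl1 (-0.53) and Clmn (-0.23) were lower in Gpr17-high cells. Cspg4, at 0.20 ± 0.08 with all members (edgeR adjusted p = 0.0506), passed in this setting at 0.38, while the Rnf152 call was lost (-0.35). Cspg4 also passed as higher with DESeq2 (0.25), with cells of at least 100 transcripts (0.22) and without anterior replicate 1 (0.24), posterior replicate 3 (0.27) or posterior replicate 4 (0.22), and as lower with precursor cells at 10 or more Pdgfra transcripts (-0.25).

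Of the 9 tested guidance genes, 4 were higher in Gpr17-high cells and 1 (Slit2) was lower. Over all genes tested, 20.2% were higher and 20.2% lower. Sema3d stood between 6.96 and 8.21 per 1000 in Gpr17-high cells, against 4.58 to 6.09 in precursor cells (log2 0.79 ± 0.07, edgeR adjusted p = 2.34e-10). Sema5b ran from 4.82 to 6.21, against 3.09 to 5.11 in precursor cells (log2 0.69 ± 0.09). The ephrin receptor Epha4 ran from 3.24 to 4.88, against 2.26 to 3.05 (log2 0.96 ± 0.09). Sema3d and Epha4 did not overlap between the classes, and Sema5b did. Of the 16 adhesion and matrix genes, 5 were higher, among them the cadherins Cdh20 (log2 1.03) and Cdh13 (0.58) and the contactin Cntn6 (0.43), and 3 were lower, among them the fibronectin gene Fn1 (-0.47). Cntn6 lost its call with library-size scaling (0.14) and with precursor cells at 10 or more Pdgfra transcripts (0.066), and Fn1 in that second setting (-0.10) and with thinned cells (-0.23).

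Among 6 genes of immature cells, Gadd45a, a growth-arrest gene, was higher in Gpr17-high cells (log2 1.15 ± 0.11, edgeR adjusted p = 2.57e-09), and so were Nrep (0.30) and the histone acetyltransferase Hat1 (0.24). Id2, an inhibitor of differentiation factors, was lower (-0.36). Nrep and Hat1 lost their calls with library-size scaling. Hat1 also lost it without intermediate replicate 1 (0.22), posterior replicate 3 (0.20) or posterior replicate 4 (0.24), with thinned cells, with members under 5 Opalin transcripts and with precursor cells at 10 or more Pdgfra transcripts, where Id2 lost its call too (-0.11). Parm1 (log2 1.53) and the collagen-processing gene Adamts2 (1.39) were also among the largest differences upward. None of the 12 growth factor and Wnt modulators was higher, and Igf2 was the lowest gene of the comparison (-1.52 ± 0.26). Igf2 stood between 0.48 and 0.67 per 1000 in Gpr17-high cells, against 0.976 to 6.16 in precursor cells. Igf2 is also on the list of fibroblast markers, of which 6 were tested. Of these, Igf2 was lower, Adamts2 was higher and 4 did not pass (median log2 0.27). With precursor cells at 10 or more Pdgfra transcripts the Igf2 difference was -0.44 and did not pass.

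The genes lower in Gpr17-high cells included markers of other cell types. All 11 endothelial markers were lower, and their summed level ran from 11 to 15.3 per 1000 in Gpr17-high cells, against 16.5 to 35.2 in precursor cells, without overlap. Of 7 astrocyte markers tested, 5 were lower and 1 (Gfap) higher, with sums of 37.0 to 43.0 in Gpr17-high cells and 47.5 to 64.8 in precursor cells. Of 7 microglial markers 3 were lower, with sums of 7.99 to 13.6 in Gpr17-high cells and 9.98 to 19.9 in precursor cells. No marker of these lists was at 0 in either class, and the part of such transcripts in the lower calls was not tested.

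Both directions of this comparison moved with a setting. With precursor cells required to hold at least 10 Pdgfra transcripts, and allowed under 10 of Opalin, 60 of 272 genes passed. Of these, 37 were higher and 23 lower in Gpr17-high cells. In this setting 7 of 9 lineage genes were still higher, while 2 of 11 endothelial markers were lower. Scaling by library size in place of TMM moved the median of all genes by -0.29 on the log2 scale and gave 34 higher and 151 lower calls, with 7 of 9 lineage genes higher.

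**Figure D3:**
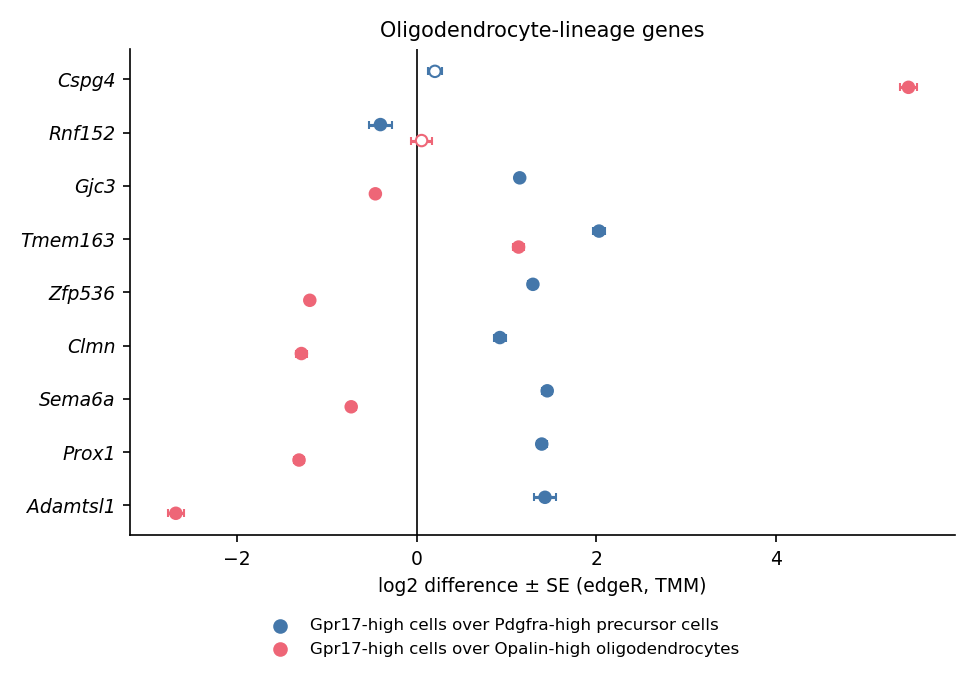
Log2 differences of 9 oligodendrocyte-lineage genes in Gpr17-high cells over precursor cells (blue) and over Opalin-high cells (red), with SE from edgeR. Filled points passed an adjusted p of 0.05 and open points did not; Tmem163 lies right of zero in both comparisons (2.03 and 1.13), while Gjc3, Zfp536, Clmn, Sema6a, Prox1 and Adamtsl1 lie right of it over precursor cells and left of it over Opalin-high cells.

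Against Opalin-high cells, with the same fit, 178 of 272 genes passed (65.4%), 87 higher in Gpr17-high cells (32.0%) and 91 lower (33.5%). Of the 9 lineage genes 2 were higher, 6 were lower and Rnf152 did not pass. Cspg4 ran from 16.9 to 21.2 per 1000 in Gpr17-high cells, against 0.366 to 0.596 in Opalin-high cells, the widest gap of the comparison (log2 5.47 ± 0.10, edgeR adjusted p = 1.01e-24). Tmem163 was also higher here: 10.9 to 15 in Gpr17-high cells, against 5.6 to 6.3 in Opalin-high cells, without overlap (log2 1.13 ± 0.06, edgeR adjusted p = 7.53e-15). Of the 9 lineage genes, Tmem163 alone passed as higher over both classes in the main fit, though not alone in every setting. Cspg4 passed as higher over precursor cells in the settings named above. Gjc3 passed as higher over precursor cells (log2 0.82) with members under 5 Opalin transcripts. It passed as higher over Opalin-high cells (0.21) with members under 5 Pdgfra transcripts. These were different sets of members, each compared with 1 class, so no single setting put Gjc3 higher over both. From the other lists, Sema3d, Sema5b, Cdh13, Cdh6, Cntn6, Nectin3, Nrep and Gadd45a also passed as higher over both classes in the main fit. Over all genes tested, 20.2% were higher over precursor cells and 32.0% over Opalin-high cells. The share of all genes higher over both is not given here. Gadd45a lost its call over Opalin-high cells with DESeq2 (0.18) and with library-size scaling (0.17), among other settings.

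Guidance and adhesion genes differed in both directions, as did all genes tested in this comparison (32.0% higher and 33.5% lower). Of 9 guidance genes 4 were higher in Gpr17-high cells and 2 lower (median log2 0.0086), against a median of -0.038 over all genes tested. Sema5b stood between 4.82 and 6.21 per 1000 in Gpr17-high cells, against 0.309 to 0.384 in Opalin-high cells (log2 4.05 ± 0.09), and Sema3d between 6.96 and 8.21, against 1.01 to 1.36 (log2 2.75 ± 0.06, both far past the edgeR threshold). Ppfibp1 ran from 11.8 to 15.4 in Gpr17-high cells, against 1.71 to 2.04 in Opalin-high cells (log2 2.89 ± 0.05). None of the 3 overlapped between the classes. Of 16 adhesion and matrix genes (median log2 0.019) 7 were higher, led by Cdh13 (log2 2.43), Cntn6 (1.69), Cntnap5b (1.54) and Cdh4 (1.24), and 3 were lower. With members under 5 Pdgfra transcripts, Cntnap5b (-0.087) and Cdh4 (0.16) did not pass. The choline transporter-like gene Slc44a5 was higher by 3.38 ± 0.11. The SOX factors Sox11 (log2 1.53) and Sox5 (1.37) were higher, with 4.34 to 5.38 Sox11 transcripts per 1000 in Gpr17-high cells, against 1.43 to 2.15 in Opalin-high cells.

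Genes of the Opalin-bearing stage were lower in Gpr17-high cells. Adamtsl1 ran from 1.25 to 2.88 per 1000 in Gpr17-high cells, against 10.7 to 14.1 in Opalin-high cells (log2 -2.68 ± 0.09, edgeR adjusted p = 6.15e-19). Prox1 ran from 7.26 to 9.28, against 17.9 to 23.2 in Opalin-high cells (log2 -1.31), and Clmn from 10.8 to 13.5, against 28.4 to 32.3 (-1.28). Zfp536 (-1.19), Dpy19l1 (-1.14), Sema6a (-0.73) and Gjc3 (-0.46) were lower too, and none of these levels overlapped. Igfbp5, an insulin-like growth factor binding protein, was lower by 0.55 on the log2 scale, and the mTOR inhibitor Deptor by 0.87. All 7 microglial markers were lower, with sums of 7.99 to 13.6 per 1000 in Gpr17-high cells and 15.7 to 18.9 in Opalin-high cells. Of 7 astrocyte markers 6 were lower, with sums of 37.0 to 43.0 in Gpr17-high cells and 51.0 to 62.0 in Opalin-high cells. No marker of these lists was at 0 in either class, and their part in the lower calls was not tested.

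A further setting took the 654 members under 5 Pdgfra transcripts, matching the limit on Opalin-high cells, and was chosen after seeing the data. In it 111 of 271 genes passed, 63 higher in Gpr17-high cells and 48 lower. Tmem163 (log2 2.28), Slc44a5 (4.07), Sema5b (3.96), Cspg4 (3.58), Ppfibp1 (3.24) and Sema3d (2.98) stayed higher, and Adamtsl1 (-1.93), Clmn (-0.40) and Prox1 (-0.40) stayed lower. Gjc3 then passed in the other direction, higher in Gpr17-high cells (0.21), and Sema6a (0.16) did not pass. Other named genes that lost their calls in this setting were Cntnap5b, Cdh4, Adamts2 (-0.16), Arc (-0.057), Hat1 (-0.23) and Slc13a4 (-0.51). Of 11 endothelial markers 7 were higher in Gpr17-high cells in this setting, against 0 of 11 with all members, and their part in the higher calls was not tested.

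To describe how the members vary among themselves, they were divided into 4 states by whether they held at least 3 transcripts of Pdgfra, of Opalin, of both or of neither. There were 327 Opalin-side cells (21.1%), 759 Pdgfra-side cells (48.9%), 182 cells with both (11.7%) and 285 with neither (18.4%). The share of Opalin-side cells ran from 14.1% to 28.5% over the 7 sections, and that of Pdgfra-side cells from 43.3% to 56.5%. Mean Pdgfra-side shares were 53.1% in anterior, 50.7% in intermediate and 45.7% in posterior sections. Exact permutation tests by position gave p = 0.752 for the Opalin side, 0.152 for the Pdgfra side, 0.305 for both and 0.619 for neither, before any adjustment over the 4. Among the 121 members with 20 or more Gpr17 transcripts, 57.0% held neither, 30.6% were on the Opalin side and 8.26% on the Pdgfra side. Among the 1029 with 5 to 9, 10.8% held neither, 17.9% were on the Opalin side and 57.6% on the Pdgfra side.

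Opalin-side members were compared with Pdgfra-side members within sections by the same edgeR fit. Of 200 genes tested, 118 passed (59.0%), 52 higher (26.0%) and 66 lower (33.0%) on the Opalin side. Of the 9 lineage genes 7 were higher and 2 (Cspg4 and Rnf152) lower. Tmem163 ran from 22.0 to 35.0 per 1000 on the Opalin side (median 26.5), against 4.13 to 5.24 on the Pdgfra side (median 4.67), a log2 difference of 3.01 ± 0.10 (edgeR adjusted p = 2.75e-12). Sema6a ran from 31.5 to 40.6, against 6.18 to 7.49 on the Pdgfra side (log2 2.86 ± 0.09), and Prox1 from 16.3 to 24.3, against 2.94 to 3.68 (log2 3.03 ± 0.11). No section of one side reached the other for these 3 genes.

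Further genes higher on the Opalin side were Adamtsl1 (log2 3.90), Adamts2 (3.17), Parm1 (2.97), Zfp536 (2.86), Clmn (2.85), the ubiquitin ligase Pdzrn3 (2.52), Epha4 (1.88), the G protein subunit Gng12 (1.84), Cdh20 (1.68), Gadd45a (1.59) and Gjc3 (1.57). Those lower were led by Cspg4, which ran from 0.763 to 3.05 per 1000 on the Opalin side, against 28.8 to 33.1 on the Pdgfra side (log2 -3.37 ± 0.15). C1ql2 (-2.39), the ETS factor Etv5 (-2.35), Tmem255a (-2.31), Cntnap5b (-2.30) and Cdh4 (-2.15) were lower as well, and so were Sox11 (-1.42), Sox5 (-1.34), Slit2 (-1.06) and Sema5b (-1). Scaling by library size moved the median of all genes by -0.47 and gave 31 higher and 109 lower calls, with the same counts for the lineage list. Of 5 microglial markers tested 4 were higher on the Opalin side (1 of 5 with library-size scaling), with sums of 7.26 to 16.7 per 1000 there and 5.36 to 11.6 on the Pdgfra side, and 0 of 7 endothelial markers passed in either direction.

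The Opalin-side members differed in levels from Opalin-high cells outside the rule. Tmem163, at 27.4 ± 4.4 per 1000 on the Opalin side, stood at 5.92 ± 0.304 in Opalin-high cells, and Ppfibp1 at 9.02 ± 1.05 on the Opalin side, against 1.89 ± 0.109. Adamtsl1 stood at 4.77 ± 1.04 on the Opalin side, against 12.9 ± 1.51 in Opalin-high cells. Gjc3 (72.0 ± 4.9 against 71.7 ± 7.03) and Prox1 (20.3 ± 3 against 21.2 ± 2.06) overlapped between them. These values, like the next ones, are a description with no test (SD, n = 7).

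The 285 members with neither transcript stood apart from the other states in some of these levels. Gpr17, a gene of the rule, stood at 59.7 per 1000 in them, the highest of the 4 states. Ppfibp1 ran from 18.8 to 27.0 per 1000 in them, above every section of the Opalin side (7.12 to 10.1), of cells with both (12.3 to 17.3) and of the Pdgfra side (10.4 to 14.2). Gadd45a ran from 4.1 to 7.24, against 1.02 to 1.68 on the Pdgfra side. Tmem163 ran from 16.0 to 24.8, apart from the Pdgfra side (4.13 to 5.24) but overlapping the Opalin side. Prox1 (3.24 to 5.85) and Sema6a (5.1 to 9.94) reached into the Pdgfra-side ranges. Cspg4 ran from 4.79 to 9.02, below the Pdgfra side (28.8 to 33.1) and above the Opalin side (0.763 to 3.05). Endothelial and astrocyte markers had their highest mean sums in this state, as did microglial, mural and glutamatergic ones. Fibroblast, GABAergic and ependymal markers did not. Endothelial sums averaged 20.9 per 1000, against 9.97 on the Opalin side, 11.5 with both and 12.2 on the Pdgfra side. Astrocyte sums averaged 47.2, against 33.1, 37.3 and 42.0. The part of these transcripts in the levels was not tested.

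The 182 members with both transcripts had 6.36 ± 0.475 Tmem163 transcripts per 1000, close to Opalin-high cells (5.92 ± 0.304) and below the Opalin side (27.4 ± 4.4). Their Adamtsl1 (4.89 ± 1.14) and Cspg4 (25.3 ± 1.63) were high at once, where Opalin-side members had 4.77 and 2.12 and Pdgfra-side members 0.438 and 30.6. The median total was 270 transcripts in cells with both, 261 on the Opalin side, 250 on the Pdgfra side and 228 with neither. Whether transcripts of more than 1 cell were joined in these barcodes was not tested.

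**Figure D4:**
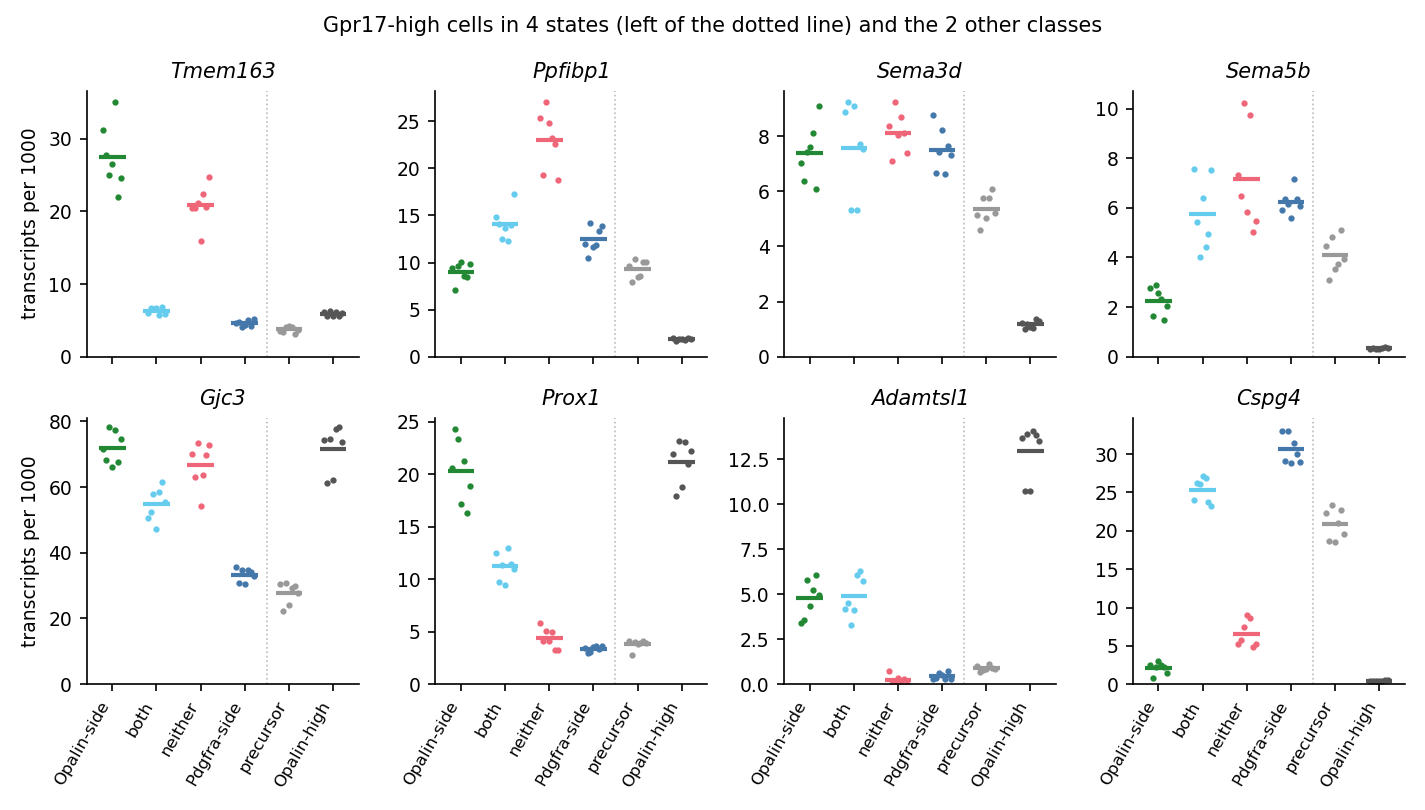
Levels of 8 genes, in transcripts per 1000, in the 4 states of Gpr17-high cells (left of the dotted line) and in precursor and Opalin-high cells (right of it). Points are the 7 sections and bars their means; Tmem163 is high on the Opalin side (27.4) and with neither transcript (20.8), Ppfibp1 is highest with neither (23.0), and Sema3d lies between 7.38 and 8.13 in all 4 states, against 5.36 in precursor and 1.17 in Opalin-high cells.

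Sema3d had close means across the states, at 7.38 ± 1.03 per 1000 on the Opalin side, 7.58 ± 1.68 with both, 8.13 ± 0.736 with neither and 7.51 ± 0.78 on the Pdgfra side. The Opalin and Pdgfra sides overlapped. Their log2 difference depended on the scaling: it was 0.43 with TMM (edgeR adjusted p = 0.00347) and -0.03 with library size (0.802).

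Few genes passed the threshold by position within the members, with 3 posterior, 2 intermediate and 2 anterior sections. Of 272 genes tested by edgeR, 2 passed between posterior and anterior sections (0.735%), where 28 had an unadjusted p under 0.05. Between intermediate and anterior sections 0 passed (0%), where 7 genes had an unadjusted p under 0.05 and DESeq2 also called 0. None of the 9 lineage genes passed in either contrast. Both called genes were lower in posterior sections. Ppp1r1b, the striatal phosphatase inhibitor DARPP-32, stood at 4.08, 4.26 and 4.19 per 1000 in posterior Gpr17-high cells, against 7.89 and 6.88 in anterior ones. The intermediate sections, at 6.31 and 5.25, lay between. The log2 difference was -0.85 ± 0.14 (edgeR adjusted p = 0.0251).

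Unc13c, a synaptic vesicle priming gene, stood at 6.95, 7.8 and 5.62 per 1000 in posterior Gpr17-high cells, against 10.7 and 11 in anterior ones (log2 -0.71 ± 0.14, edgeR adjusted p = 0.0420). Neither gene overlapped between the 2 positions. In 1 class outside the members, not the same class for both, each gene also stood lower in posterior sections. Values in the other classes are not given here. Ppp1r1b stood at 7.99 to 9.05 per 1000 in all other cells of posterior sections, against 10.8 and 11.8 in anterior sections, and Unc13c at 11.4 to 12.0 in posterior Opalin-high cells, against 14.8 and 18.9 in anterior ones. The part of transcripts from neighbouring cells in these 2 calls was not tested. The Ppp1r1b call was lost without anterior replicate 1 or any single posterior replicate, and the Unc13c call without any single section other than intermediate replicate 2. Across 14 settings Ppp1r1b passed in 7 (adjusted p 0.00063 to 0.534) and Unc13c in 3 (0.00397 to 0.403). With the replicate number as a block, and with slide as a term, neither passed.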

How the data were processed

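Transcripts were measured by Xenium in 7 sections. The deposited count table holds whole transcript counts per gene and cell, and a cell table names the section of each cell. The submitters' processing notes name Seurat, while cell segmentation, decoding and filters are steps on which the sources used here say nothing. Each cell's counts summed to its deposited total (100% of cells), and 296 of 297 symbols were found in the RefSeq gene table of GRCm38.p6. The table holds no cell coordinates.

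Members were found by the rule given in the report, and counts were summed per section and class (146504697 transcripts in all). Genes were tested with edgeR 4.0.16 in R 4.3.3: filterByExpr, TMM, glmQLFit and glmQLFTest, with section as a block in class comparisons and none for position, and a Benjamini-Hochberg threshold of 0.05 over the genes tested. The 10 genes that define classes stayed in library sizes and were not tested. The SE is the log2 difference over the square root of F. Shares were tested by exact permutation of sections. Levels per 1000 transcripts are unscaled, whereas log2 differences carry TMM scaling, so both can differ for 1 gene. Wilson intervals are at 95%.

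Named genes were, per class comparison, up to 12 with the largest difference in each direction that moved the same way in 7 sections with at least 0.2 transcripts per cell in the higher class, up to 10 per direction for position, the oligodendrocyte lineage list, up to 4 called members of each other list, and the 15 leading genes. The members, lists and tests were chosen with earlier results of these data known. Alternatives were DESeq2 1.42.0, library-size scaling, no filter, other thresholds, cells thinned to 100 transcripts, slide or replicate number as a term, and each section left out. Fits were tested on simulated data. No sequence was needed for these results.

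Sections that share a replicate number need not share an animal in the labels, and their deviations from the position mean did not all go together: the correlation over 232 genes was 0.397 between anterior and intermediate sections of 1 number, -0.129 between anterior and posterior replicate 1 and -0.034 between intermediate and posterior replicate 1. The number was therefore not taken to pair sections.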

Additional observations from a re-analysis of the deposited data

Results flagged for a closer look

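Of 82 values tested over the 7 sections (70 named genes and the shares and ratios of the members), 7 had 1 section far from the others, where chance flags about 1 in 20. The number of Gpr17-high cells per precursor cell was 1.21 in posterior replicate 3, against 0.712 to 0.924 in the others. In Gpr17-high cells, Cdh13 stood at 9.51 per 1000 transcripts in intermediate replicate 1 (others 7.79 to 8.53), and Slc39a12, a zinc transporter of astrocytes, at 2.82 there (others 3.9 to 4.63). Gadd45a stood at 3.44 in posterior replicate 4 (others 1.85 to 2.45). Hat1 stood at 3.86 in posterior replicate 3 (others 2.98 to 3.28), and Rnf152 at 0.634 there (others 0.825 to 0.966). Pdzrn3 stood at 1.21 in anterior replicate 1 (others 0.878 to 0.966).

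Control probes, which match no mouse transcript and entered no comparison, gave 1.57 ± 0.507 counts per Gpr17-high cell and 0.664 ± 0.182 per other cell (SD, n = 7 sections), although Gpr17-high cells held fewer transcripts (median 255 against 348). Precursor cells had 1.19 ± 0.371 and Opalin-high cells 2.34 ± 0.786. Within the members, cells with both Pdgfra and Opalin had 2.27 ± 1.1, the Opalin side 2.05 ± 0.441, the Pdgfra side 1.3 ± 0.448 and cells with neither 1.22 ± 0.393. Blank codewords averaged 0.104 ± 0.0211 per Gpr17-high cell and 0.163 ± 0.0154 per other cell.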

How the results depend on the processing

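Against precursor cells, 110 genes passed, and 185 did with library-size scaling, 60 with Pdgfra and Opalin thresholds of 10 and 65 (of 240 tested) with cells thinned to 100 transcripts. The share of higher calls was 50% in the first, 18.4% with library size, 61.7% with thresholds of 10 and 63.1% thinned. Against Opalin-high cells 178 passed, and 111 with members under 5 Pdgfra. Among named genes, these turned sign: over precursor cells, Cspg4 (-0.25 with thresholds of 10), Hat1 (-0.046 with library size, -0.045 with members under 5 Opalin), Adamtsl1 (-0.53) and Clmn (-0.23) in that last setting; over Opalin-high cells with members under 5 Pdgfra, Cntnap5b (-0.087), Gjc3 (0.21) and Sema6a (0.16); and between sides with library size, Igfbp5 (-0.050) and Nrep (-0.069). The cause was not tested. For posterior against anterior sections 2 genes passed, and 1 with library size, 1 with no filter, 0 with Gpr17 at least 10, 0 with slide as a term and 0 with the replicate block, whose numbers were not taken as a pairing; leaving out single sections gave 0 to 3. The posterior minus anterior difference in lineage share ranged from -0.216 (without posterior replicate 3) to 1.07 percentage points (without posterior replicate 4). That in the share of all cells ranged from 0.0391 (Gpr17 at least 10) to 0.283 (no neuronal limit), settings in which the share itself also differed. In the remaining settings each total of genes passing stayed within 1.5 times its main value, as did the totals for the sides and for intermediate sections. By direction, library size gave 31 higher and 109 lower genes between sides, against 52 and 66, and the precursor comparison without the section block 36 lower genes, against 55. Depth limits low genes, since the median member held 255 transcripts over 297 genes.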
